A study of Drosophila melanogaster with 62 samples.

Results

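Cytochrome P450 genes were followed in the larval fat body of Drosophila melanogaster, the organ that stores fat and glycogen and carries out much of the larva's metabolism. Members were all genes whose names in the deposited table began with Cyp, a number, a letter code and a number, which leaves out the cyclophilin Cyp1. The rule found 79 of 14659 genes, of which 22 were Cyp4, 20 Cyp6, 7 Cyp12, 5 Cyp9, 4 Cyp28 and 21 members of other subfamilies. RNA was sequenced from fat bodies of larvae that had reached the wandering stage of the third instar, in 61 libraries that fall into 18 groups and 4 experiments. In cg males, Tfb1 RNAi larvae (stock 12580, against a subunit of the general transcription factor TFIIH) and control larvae (w1118 stock) were reared on 1.0 M or 0.15 M sucrose, with 3 libraries in each group. In cg females, control larvae of the w1118 stock were reared on 0.7 M or 0.15 M sucrose (3 libraries each). In r4 w1118 females, control larvae of that stock were reared on 0.15, 0.3, 0.7 or 1.0 M sucrose (3 libraries each). In r4 60100 females, larvae with RNAi against FOXO (stock 106097), p53 (103001) or Stat92E (106980) and control larvae of stock 60100 were reared on 0.7 M or 0.15 M sucrose, with 4 libraries in each group and 3 for p53 RNAi on 0.15 M. Larvae of every group carried UAS-Dcr2 and a GAL4 driver for the fat body, cg-GAL4 or r4-GAL4 as in the name of the experiment. Male fat bodies were dissected, whereas female ones were sheared free and collected by centrifugation. Column headings of the male libraries name r4, whereas the labels give cg-GAL4, and the labels were followed. The columns of p53 RNAi on 0.15 M have headings of the same form, with a code (D2) that is not explained, unlike all other columns of r4 60100 females, although their labels and scaling match that experiment. Every comparison with p53 RNAi on 0.15 M rests on them. RNAi and control larvae come from different stocks, so the knockdown and the rest of the stock's genotype cannot be told apart.

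P450 enzymes are heme monooxygenases that insert an oxygen atom into fatty acids, steroid hormones and foreign compounds. Most sit in the endoplasmic reticulum and draw electrons from NADPH through the reductase Cpr, while those of the mitochondrial clan, to which Cyp12 belongs, use a ferredoxin and its reductase. In insects, Cyp6, Cyp9 and Cyp12 genes are best known for the oxidation of insecticides and plant toxins, and vertebrate Cyp4 enzymes hydroxylate fatty acids at the chain's end. A separate group with names of its own (dib, sad, shd and others) makes the moulting hormone ecdysone. The fat body is a main site of P450 expression in the larva together with the gut and the Malpighian tubules.

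Values are scaled FPKM, that is fragments per kilobase of transcript in units that were set so that the same number of genes reached 1 in each library of an experiment. That number was 2080 in cg females, 2117 in r4 w1118 females, 2649 in cg males and 2464 or 2465 in r4 60100 females. They are relative within an experiment, and every test stayed within 1 experiment. Per kilobase of transcript, a value of 1 corresponds to roughly 2.38 to 8.0 fragments in cg males, 5.66 to 8.0 in cg females, 6.73 to 26.9 in r4 60100 females and 3.36 to 11.3 in r4 w1118 females. Values near 1 thus rest on few fragments. In the 7 groups of r4 60100 females with 4 libraries, the library in the second column had the lowest mean correlation with its own group in all 7 and held the most fragments per unit in 6. Counts without these libraries are given where they differ by more than 1.5 times. The labels do not tell if each library had its own animals, and the p-values measure the spread between libraries alone. Of the targeted genes, Stat92E could be tested and averaged 0.443 in Stat92E RNAi and 2.68 in control females on 0.15 M, and 0.233 and 0.980 on 0.7 M. The others were under the filter on low values: on 0.15 M, foxo averaged 0.340 in FOXO RNAi and 0.599 in control females, p53 0.0904 in p53 RNAi and 0.126 in control females, and Tfb1 0.467 in Tfb1 RNAi and 0.819 in control males. Dcr-2, which all larvae also carried as a GAL4-driven transgene, averaged 27.1 in Tfb1 RNAi and 96.7 in control males on 0.15 M, and 16.1 and 40.8 on 1.0 M.

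A minority of the P450 genes reached the filter on low values, as of all genes, and a few of them held a large part of the family's summed value. Of the 79 members, 33 had a mean of at least 1 in at least 1 experiment and could be tested there. The same was true of 3542 of all 14659 genes. In all 4 experiments 19 of the members and 1552 of all genes were tested. Another 32 were above 0 somewhere with a mean under 1 in every experiment, and 14 were listed at 0 in every library, among them Cyp303a1, Cyp305a1, Cyp308a1, Cyp28c1, Cyp49a1 and the Cyp313a genes Cyp313a1 to Cyp313a5. All 5 Cyp9 genes, 5 of 7 Cyp12 genes, 9 of 22 Cyp4 genes, 9 of 20 Cyp6 genes and 2 of 4 Cyp28 genes reached the filter somewhere, against 3 of the 21 genes of other subfamilies. The highest single values among the 32 low members were 2.46 for Cyp4ad1, 1.86 for Cyp309a2 and 1.71 for Cyp6d4. Cyp4g1, the hydrocarbon-forming enzyme of oenocytes, reached at most 0.627 and Cyp18a1, which inactivates ecdysteroids, at most 0.0486. The family's summed value was 0.396 to 0.499% of the sum over all genes in cg males, 0.390 to 0.491% in cg females, 0.211 to 0.375% in r4 60100 females and 0.322 to 0.443% in r4 w1118 females. The 5 highest members of a library held 49.4 to 67.3% of it.

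The leading genes differed between experiments, which were scaled separately and are set side by side here without a test. Cyp4d1 had the highest mean in both r4 experiments, 37.03 in r4 w1118 and 35.7 in r4 60100 females, and averaged 25.7 in cg females and 3.80 in cg males. Cyp6g1, which confers resistance to DDT when overexpressed, averaged 29.98, 19.3, 29.1 and 14.2 in the same order. Cyp309a1 averaged 21.4, 22.99, 6.998 and 11.9 in that order, and Cyp6d5 8.10, 7.41, 20.3 and 13.4. In cg males Cyp6d2 and Cyp4e3 had the highest means, 17.0 and 14.3, and both owed them to 1 genotype or 1 diet. Neighbouring members on a chromosome also differed in level, and this was not tested. Pairs can have a gene in common, and the Cyp12d1 copies, which are near-identical, may share reads. Of 24 pairs of members that lie next to each other in the RefSeq annotation (Release 6 plus ISO1 MT), 3 had both genes at a mean of 1 or more in some experiment, 16 had exactly 1 such gene and 5 had none. In cg females Cyp28d1 averaged 10.68 beside Cyp28d2 at 0, and Cyp6g1 averaged 29.07 beside Cyp6g2 at 0.1095.

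**Figure D1:**
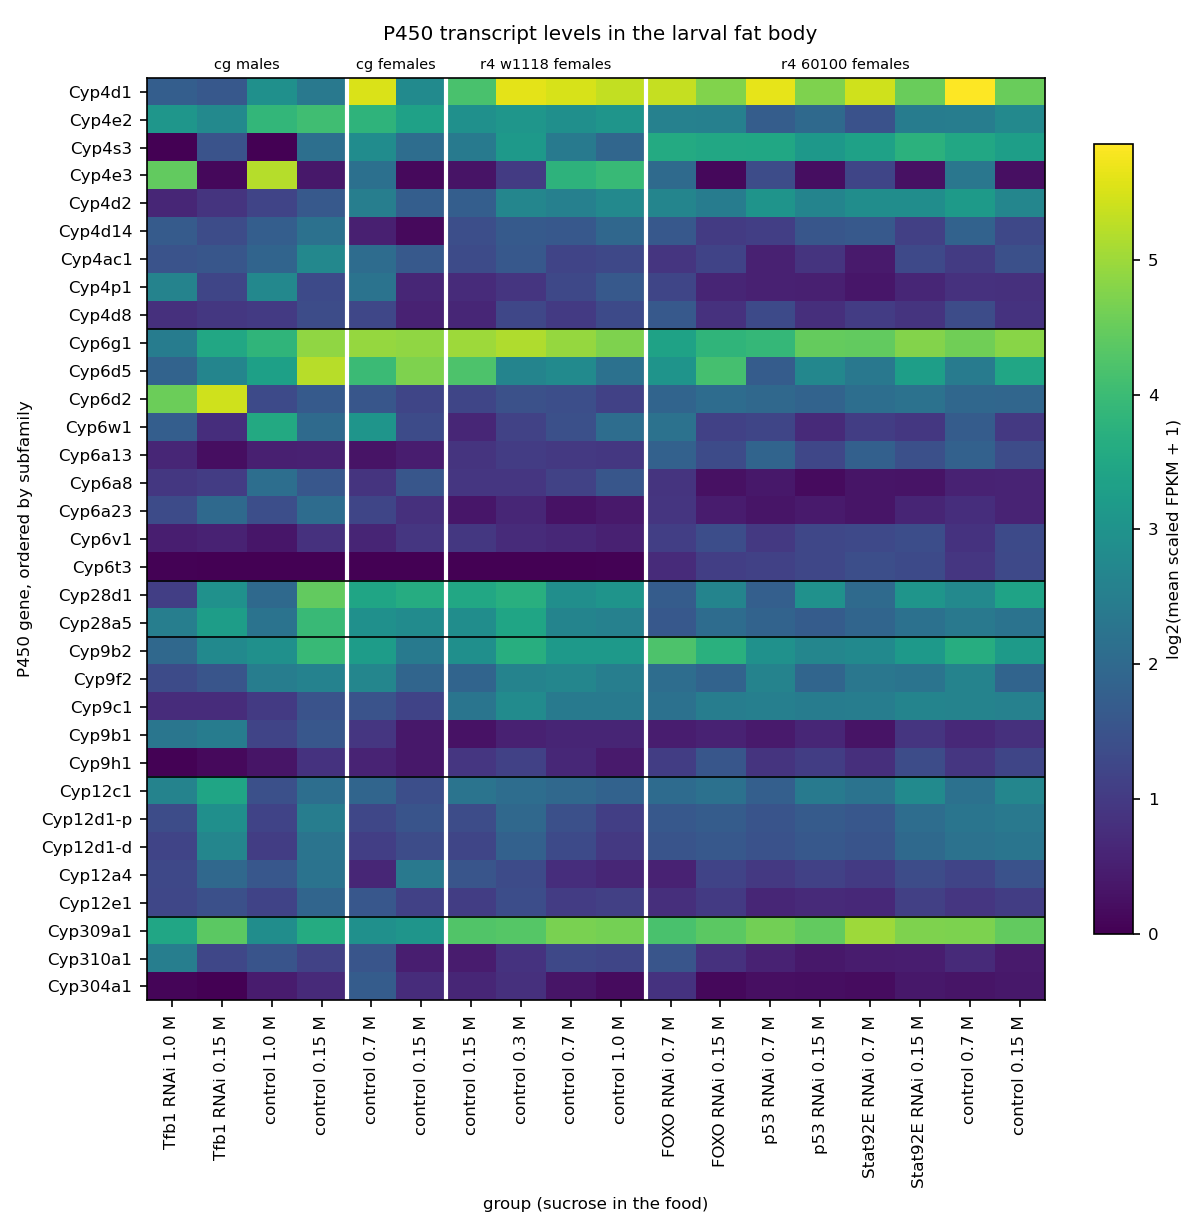
Group means of the 33 P450 genes that reached a mean of 1 in at least 1 experiment, as log2(mean scaled FPKM + 1). Rows are genes by subfamily (Cyp4, Cyp6, Cyp28, Cyp9, Cyp12, others, parted by lines), columns are the 18 groups by experiment, and colours compare within an experiment only. Cyp4d1, Cyp6g1 and Cyp309a1 are bright in the r4 columns, and Cyp6d2 is bright in the Tfb1 RNAi columns alone.

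In control males most of the called P450 changes with dietary sugar were falls, as were most called changes over all genes tested. A gene was called where its adjusted p was under 0.05, and the percentages in parentheses give the share of all genes tested that were called in the same direction. The filter used the mean over an experiment, so a called member could average under 1 in 1 of the groups compared. In control males Cyp4e3 did so on 0.15 M and Cyp9c1 on 1.0 M. In control males on 1.0 M against 0.15 M sucrose, 4 of 28 tested members were higher, where 5.37% of all genes tested were higher, and 15 were lower, where 22.9% of all genes were lower. Those higher were Cyp4e3, Cyp6w1, Cyp4p1 and Cyp6a8, and those lower were led by Cyp28d1, Cyp6d5, Cyp28a5, Cyp12d1-p, Cyp12d1-d, Cyp6g1, Cyp9b2 and Cyp4ac1, with Cyp12e1, Cyp309a1, Cyp12c1, Cyp6a23, Cyp12a4, Cyp9c1 and Cyp4d8 after them. All 5 tested Cyp12 genes and both tested Cyp28 genes were lower. The median log2 change of the members was -0.58, beside -0.13 over all genes tested. Within Tfb1 RNAi males the same diet comparison had 4 of 28 members higher (5.6% of all genes) and 11 lower (8.49%). Higher were Cyp4e3, Cyp4p1, Cyp310a1 and Cyp6w1, and lower were Cyp28d1, Cyp12d1-p, Cyp12d1-d, Cyp6g1, Cyp309a1, Cyp6d2, Cyp12c1 and Cyp6d5, then Cyp9b2, Cyp28a5 and Cyp12a4. Cyp4e3 and Cyp6w1 averaged under 1 in Tfb1 RNAi males on 0.15 M and passed the filter through other groups. The count of higher members is thus a description.

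Female fat bodies leaned the other way in the cg experiment, among the members as over all genes tested. Besides sex, this experiment differs from the male one in how fat bodies were collected and in the high-sugar diet, 0.7 M in place of 1.0 M. In cg females on 0.7 M against 0.15 M, 13 of 26 members were higher (27.5% of all genes) and 3 were lower (12.3%), and the members' median log2 change was 0.45 beside 0.15 over all genes. The higher ones were Cyp4d1, Cyp4e3, Cyp6w1, Cyp4p1, Cyp310a1, Cyp9b2, Cyp4s3 and Cyp9f2, then Cyp4d2, Cyp12c1, Cyp4e2, Cyp12e1 and Cyp4ac1. Lower were Cyp12a4, Cyp6d5 and Cyp6a8. Among the called members, 3 of the 13 higher ones (Cyp4e3, Cyp4p1 and Cyp310a1) averaged under 1 on 0.15 M and 2 of the 3 lower ones (Cyp12a4 and Cyp6a8) under 1 on 0.7 M, so they passed the filter through 1 of the groups compared. All 7 Cyp4 genes that passed the filter were called higher, a count that describes these genes and no more, since Cyp4e3 and Cyp4p1 are among those 3.

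Fewer members were called in the other female controls. In r4 w1118 females, 3 of 25 members were higher on 0.3 M than on 0.15 M (6.34% of all genes) and Cyp6d5 was the 1 lower (1.38%), the higher ones being Cyp4d1, Cyp12d1-p and Cyp12d1-d. On 0.7 M, Cyp4e3, Cyp4d1 and Cyp9f2 were the 3 higher (11.3%) and Cyp6d5 and Cyp12a4 the 2 lower (2.94%). On 1.0 M, 5 were higher (12.6%), namely Cyp4e3, Cyp6w1, Cyp4d1, Cyp4p1 and Cyp4d8, and 3 were lower (4.64%), namely Cyp6d5, Cyp12a4 and Cyp12c1. A linear trend over the 4 sucrose concentrations was upward for 3 members, Cyp4e3, Cyp6w1 and Cyp4p1 (7.95% of all genes), and downward for 3, Cyp6d5, Cyp12a4 and Cyp12c1 (4.23%). These comparisons share their 0.15 M libraries. Of the 5 members higher on 1.0 M, 4 (Cyp4e3, Cyp6w1, Cyp4p1 and Cyp4d8) averaged under 1 on 0.15 M, as did Cyp4e3 among those higher on 0.7 M. Cyp12a4 averaged under 1 on 0.7 and 1.0 M. These members passed the filter through other groups of the experiment. In 60100 control females on 0.7 M against 0.15 M, 6 of 25 members were higher (18.7%), Cyp4e3, Cyp4d1, Cyp6w1, Cyp9f2, Cyp4d8 and Cyp6a13, and 5 were lower (12.4%), Cyp6d5, Cyp28d1, Cyp12c1, Cyp6v1 and Cyp9h1, shares close to those of all genes. Here 3 of the 6 higher ones (Cyp4e3, Cyp6w1 and Cyp4d8) averaged under 1 on 0.15 M. Likewise 2 of the 5 lower ones (Cyp6v1 and Cyp9h1) averaged under 1 on 0.7 M. The counts of these r4 experiments thus describe the genes named and no more.

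Across the control diet comparisons of the 4 experiments, which share no libraries with each other, Cyp4e3 and Cyp6w1 were higher on high sugar in all 4 and Cyp6d5 was lower in all 4. These are 2 and 1 of the 19 members tested in all 4 experiments, where 0.966% of all genes so tested were higher and 0.773% lower in all 4. Cyp4e3 passed the filter in every experiment only through groups on raised sugar, and Cyp6w1 averaged under 1 on 0.15 M in both r4 experiments, so their count is a description. Cyp4d1, Cyp4p1 and Cyp9f2 were higher in 3 experiments, and Cyp12a4 and Cyp12c1 lower in 3. That makes 5 of 33 members higher in at least 3 experiments (2.99% of all genes tested in at least 1) and 3 lower (1.81%). These counts are a description too. The 5 include Cyp4e3, Cyp6w1 and Cyp4p1, which averaged 0.541 in cg females and 0.655 in r4 w1118 females on 0.15 M. Cyp12a4, among the lower ones, averaged 0.539 in cg females and 0.709 in r4 w1118 females on 0.7 M. Cyp4ac1, Cyp4d8, Cyp6a8, Cyp9b2, Cyp12c1, Cyp12d1-d, Cyp12d1-p and Cyp12e1, 8 of the 33 members, were called in both directions in different experiments (8.44% of all genes). Only Cyp9b2 kept its calls in both directions when single libraries were left out and the processing was varied. Cyp12d1-d and Cyp12d1-p are near-identical copies and may be 1 signal, so this count is a description as well. Of the 33 tested members, 5 were called in none of these comparisons, Cyp304a1, Cyp4d14, Cyp6d2, Cyp6t3 and Cyp9b1, where 47.4% of all genes were called in none.

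In 7 of the 8 comparisons of an RNAi line with its control more members were lower than higher. Lower calls also outnumbered higher ones over all genes in Tfb1 and Stat92E RNAi on 0.15 M and in p53 RNAi on 0.7 M. The same held for FOXO RNAi on both diets. In the remaining comparisons higher calls were slightly more frequent over all genes. In Tfb1 RNAi against control males, 6 of 28 members were higher on 0.15 M (10.4% of all genes) and 16 lower (25.8%), and on 1.0 M 5 were higher (12.2%) and 9 lower (11.9%). On 0.15 M those higher were Cyp6d2, Cyp12c1, Cyp9b1, Cyp309a1, Cyp12d1-p and Cyp12d1-d, and those lower were led by Cyp6d5, Cyp28d1, Cyp6g1, Cyp4e2, Cyp6w1, Cyp4ac1, Cyp9b2 and Cyp9f2. On 1.0 M those higher were Cyp6d2, Cyp12c1, Cyp9b1, Cyp310a1 and Cyp309a1, and those lower were Cyp6w1, Cyp6d5, Cyp6g1, Cyp6a8, Cyp4d1, Cyp9f2, Cyp9b2 and Cyp4e2, then Cyp4e3. None of the 9 tested Cyp4 genes was higher at either diet, 6 were lower on 0.15 M and 3 on 1.0 M. Among the 16 lower members on 0.15 M, 4 (Cyp4d2, Cyp9c1, Cyp4d8 and Cyp6w1) averaged under 1 in Tfb1 RNAi, as did Cyp6a8 on 1.0 M. These members passed the filter through other groups. The Tfb1 RNAi effect differed between the diets for 3 members, all in the positive direction (7.12% of all genes were positive and 1.3% negative), Cyp6d5, Cyp28a5 and Cyp310a1.

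In r4 60100 females the 3 RNAi lines are compared with the same control libraries at each diet, so their values are given side by side. FOXO RNAi had 2 of 25 members higher on 0.15 M (6.58% of all genes), Cyp6d5 and Cyp9h1, and 5 lower (10.7%), Cyp6g1, Cyp28d1, Cyp12d1-p, Cyp12d1-d and Cyp12c1. On 0.7 M it had 1 higher (9.76%), Cyp6d5, and 9 lower (17%), Cyp6g1, Cyp28d1, Cyp28a5, Cyp12d1-d, Cyp12d1-p, Cyp12a4, Cyp9f2 and Cyp309a1, then Cyp9c1. p53 RNAi had no member higher (1.11%) and 4 lower (1.03%) on 0.15 M, Cyp4e2, Cyp6d5, Cyp12d1-p and Cyp12d1-d, and no member higher (4.6%) and 10 lower (7.74%) on 0.7 M. The 10 were Cyp28d1, Cyp4e3, Cyp12d1-p, Cyp12d1-d, Cyp4e2, Cyp6d5, Cyp9b2 and Cyp6g1, then Cyp28a5 and Cyp12c1. Without the second libraries p53 RNAi had 7 members lower on 0.15 M, with Cyp28d1, Cyp12a4 and Cyp12c1 added. Each of the 4 calls on 0.15 M was lost when some single library was left out, and rescaling left 2 of them. Cyp12d1-p and Cyp12d1-d among the 4 may be 1 signal. Stat92E RNAi had no member called on 0.15 M by limma (1.47% of all genes were higher and 1.63% lower), with 5 of 25 at an unadjusted p under 0.05. The share of all genes at that unadjusted threshold was not counted. Without the second libraries it had 2 called there, Cyp4s3 higher (0.47, adjusted p = 0.015) and Cyp4e2 lower (-0.42, adjusted p = 0.025). On 0.7 M it had 1 higher (6.7%), Cyp6v1, and 8 lower (6.35%), Cyp4e3, Cyp4e2, Cyp9b2, Cyp28d1, Cyp12d1-d, Cyp12d1-p, Cyp6w1 and Cyp28a5. Among the members called on 0.7 M, Cyp6v1 averaged under 1 in controls and Cyp12a4 under 1 in FOXO RNAi, and both passed the filter through other groups. The members' median log2 change on 0.7 M was -0.24 for FOXO RNAi beside -0.13 over all genes, -0.24 for p53 RNAi beside 0.01, and -0.30 for Stat92E RNAi beside 0.05.

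**Figure D2:**
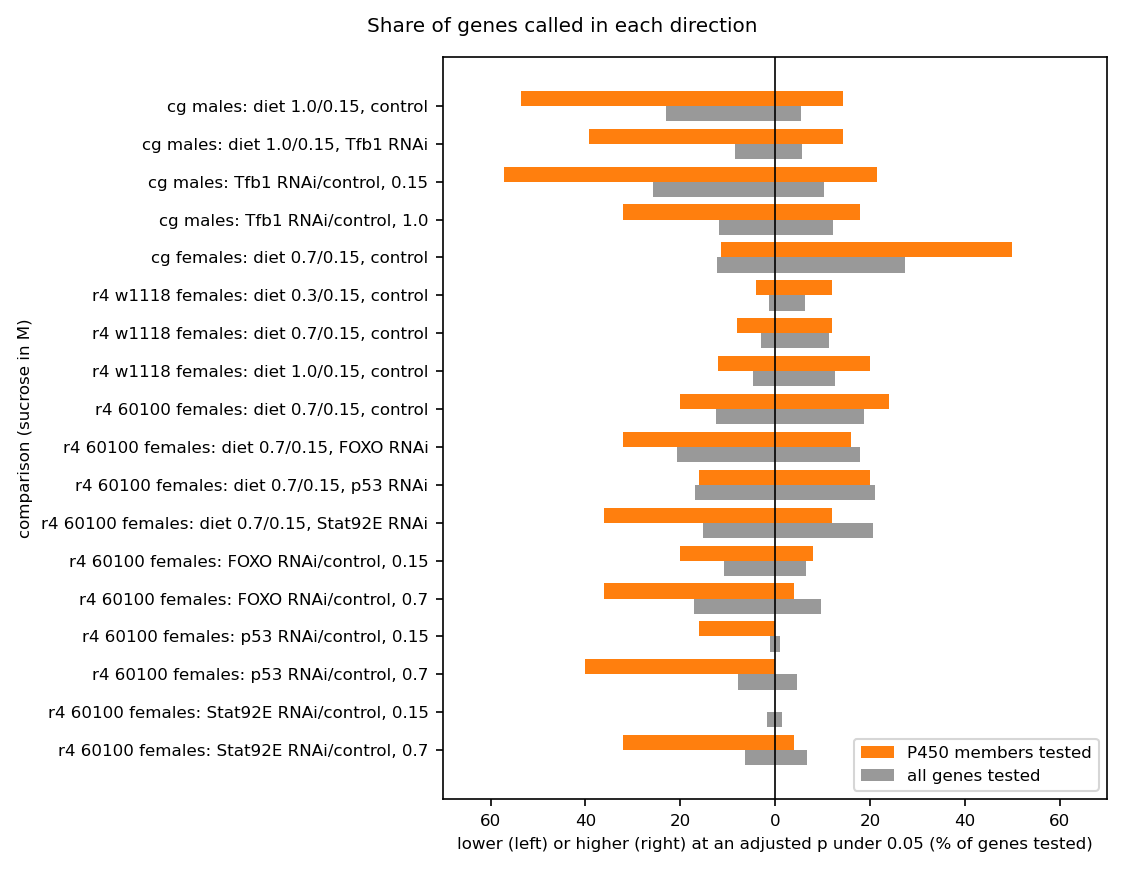
Share of tested genes called lower (left of 0) and higher (right of 0) at an adjusted p under 0.05 in each comparison, for P450 members (orange) and all genes tested (grey), in percent. In control males 15 of 28 members were lower on high sugar, and in p53 RNAi females on 0.7 M 10 of 25 were lower and none was higher.

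Diet was also compared inside each RNAi genotype. In FOXO RNAi females on 0.7 M against 0.15 M, 4 of 25 members were higher (17.9% of all genes), a share close to that of all genes. Lower were 8 (20.7%), Cyp6d5, Cyp28d1, Cyp12a4, Cyp6g1, Cyp9h1, Cyp28a5, Cyp9c1 and Cyp6v1. In p53 RNAi females, 5 of 25 were higher (21.1%) and 4 lower (16.9%), Cyp28d1, Cyp6d5, Cyp12c1 and Cyp6g1, shares close to those of all genes. In Stat92E RNAi females, 3 were higher (20.6%) and 9 lower (15.2%), Cyp28d1, Cyp4e2, Cyp6d5, Cyp9h1, Cyp12c1, Cyp12d1-p, Cyp12d1-d and Cyp4s3, then Cyp12a4. Cyp4e3 was among the higher members in all 3 lines and in the controls, with Cyp6w1, Cyp4d8 and Cyp6a13 in FOXO RNAi, with Cyp4d1, Cyp9f2, Cyp6a13 and Cyp4d8 in p53 RNAi, and with Cyp4d1 and Cyp6a13 in Stat92E RNAi. Cyp4e3 averaged under 1 on 0.15 M in all 3 lines, and Cyp4d8 in FOXO and p53 RNAi. On 0.7 M Cyp12a4 averaged under 1 in FOXO and Stat92E RNAi, and Cyp9h1 in Stat92E RNAi. These members passed the filter through other groups, so the counts describe the genes named. No member's RNAi effect differed between the diets by limma, where 13.6% of all genes did for FOXO, 0.278% for p53 and 0.238% for Stat92E. At an unadjusted p under 0.05 the numbers of members were 4, 3 and 8 in that order. The share of all genes at that threshold was not counted, so nothing is read from these numbers. Without the second libraries 1 member was called for Stat92E, Cyp4e2 (-0.67, adjusted p = 0.049). With each library rescaled by its median ratio, the median of all genes moved by 0.10 in the control diet comparison, and by 0.11 in FOXO RNAi and 0.11 in p53 RNAi, on the log2 scale, and the directions given here did not reverse.

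Cyp4 genes included the member with the largest change with diet. Cyp4e3 had 26.5, 39.5 and 41.4 in control males on 1.0 M sucrose, against 0.287, 0.352 and 0.242 on 0.15 M, a log2 change of 4.80 ± 0.21 (adjusted p = 8.2e-07). Here and below, changes are of log2(value + 1), the ± after a change is its standard error, and a call described as lost without some libraries was lost when any 1 of them was left out. The second libraries of r4 60100 groups were left out together. Every male library on high sugar was far above every library on 0.15 M, where the gene was close to 0. Cg females had 1.90, 3.92 and 4.60 on 0.7 M against 0.112, 0.0814 and 0.114 on 0.15 M, a change of 1.97 ± 0.24 (adjusted p = 0.0015). In 60100 control females it had 4.48, 2.72, 6.50 and 2.38 on 0.7 M against 0.192, 0.223, 0.143 and 0.160 on 0.15 M, a change of 2.02 ± 0.23 (adjusted p = 4.8e-07). The groups did not overlap in any of these experiments. The gene averaged under 1 on 0.15 M in each of them and passed the filter through the high-sugar groups. With no filter on low values the changes were called as well (adjusted p = 4.8e-06 in males, 0.007 in cg females and 2e-06 in 60100 controls).
In the r4 w1118 series Cyp4e3 was called on 0.7 and 1.0 M and not on 0.3 M. Its values were 0.128, 0.331 and 0.240 on 0.15 M, 0.285, 1.5 and 1.28 on 0.3 M, 13.0, 13.9 and 11.7 on 0.7 M and 21.2, 8.64 and 13.0 on 1.0 M. Against 0.15 M the log2 change was 3.49 ± 0.30 (adjusted p = 0.00012) on 0.7 M and 3.55 ± 0.30 (adjusted p = 4.4e-05) on 1.0 M. On 0.3 M, where 1 library lay among those of 0.15 M, it was 0.66 ± 0.30 (adjusted p = 0.17) and was not called. The libraries on 1.0 M lay on both sides of those on 0.7 M.

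The high-sugar level of Cyp4e3 was lower in some RNAi lines than in their controls. On 0.7 M it had 1.34, 2.17, 1.14 and 1.55 in p53 RNAi and 1.35, 0.851, 0.461 and 2.73 in Stat92E RNAi, against the control values above, changes of -0.92 ± 0.23 (adjusted p = 0.0098) and -1.11 ± 0.23 (adjusted p = 0.0032). In p53 RNAi all libraries lay under the controls, while 1 Stat92E RNAi library lay inside the control range. FOXO RNAi females had 3.30, 1.66, 3.25 and 4.09 and were not called (-0.27 ± 0.23, adjusted p = 0.41). In Tfb1 RNAi males on 1.0 M it had 21.6, 26.4 and 14.9, a change of -0.76 ± 0.21 (adjusted p = 0.023) from the controls. That call was lost without control library 2 or 3 at 1.0 M or Tfb1 RNAi library 1 or 3 at 1.0 M, with a pseudocount of 0.1 or with no filter (adjusted p = 0.052 to 0.14). Within the RNAi genotypes the diet changes were still positive, 4.29 ± 0.21 (adjusted p = 8.5e-07) in Tfb1 RNAi and 1.86 ± 0.23 (adjusted p = 4e-07) in FOXO RNAi. They were 1.11 ± 0.24 (adjusted p = 0.0012) in p53 RNAi and 0.89 ± 0.23 (adjusted p = 0.0035) in Stat92E RNAi. The differences between diets in the RNAi effect were not called, with -1.13 ± 0.32 (adjusted p = 0.11) for Stat92E and -0.90 ± 0.33 (adjusted p = 0.55) for p53. Cyp4e2 and Cyp4e1, which share its subfamily but lie on another chromosome arm, did not share this pattern: Cyp4e1 averaged at most 0.0914 in any experiment, and Cyp4e2 is described next.

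Cyp4e2 was present on every diet and lower in Tfb1 and p53 RNAi on both diets and in Stat92E RNAi on 0.7 M. It had 6.07, 5.87 and 5.47 in Tfb1 RNAi males on 0.15 M against 14.2, 16.2 and 16.5 in control males on 0.15 M, a change of -1.28 ± 0.16 (adjusted p = 0.00014). It had 7.44, 8.81 and 5.97 against 11.6, 12.4 and 17.4 on 1.0 M, -0.81 ± 0.16 (adjusted p = 0.0047). In p53 RNAi females it had 2.91, 2.63 and 3.39 on 0.15 M, against 5.79, 6.08, 6.12 and 5.14 in controls, -0.77 ± 0.16 (adjusted p = 0.0082). This call was lost without p53 RNAi library 1 at 0.15 M (adjusted p = 0.055). All RNAi libraries of these comparisons lay under all control libraries. On 0.7 M it had 2.53, 2.06, 2.40 and 2.22 in p53 RNAi and 1.91, 1.66, 1.28 and 2.27 in Stat92E RNAi, against 4.82, 3.47, 4.08 and 6.06 in controls. The changes were -0.74 ± 0.15 (adjusted p = 0.0019) and -1.0 ± 0.15 (adjusted p = 0.00016). Again no RNAi library reached the controls. Stat92E RNAi on 0.15 M had 3.87, 5.97, 4.14 and 3.90, overlapped the controls and was not called (-0.32 ± 0.15, adjusted p = 0.16). Diet lowered the gene within Stat92E RNAi (-0.97 ± 0.15, adjusted p = 2.2e-05). In cg females it was higher on 0.7 M, 14.1, 12.5 and 12.5 against 8.98, 8.06 and 10.4, a change of 0.47 ± 0.13 (adjusted p = 0.027). The call was lost without control library 1 or 2 at 0.15 M or any control library at 0.7 M (adjusted p = 0.058 to 0.091).

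Cyp4d1, the most abundant member in both r4 experiments, was higher on sugar in all 3 female experiments. In cg females it had 48.1, 53.8 and 34.5 on 0.7 M against 7.64, 5.52 and 4.83 on 0.15 M, a change of 2.73 ± 0.22 (adjusted p = 0.00042). The r4 w1118 females had 16.9, 19.0 and 15 on 0.15 M, 32.4, 55 and 57.6 on 0.3 M, 33.4, 44.6 and 54.4 on 0.7 M and 46.8, 24.7 and 44.6 on 1.0 M. All libraries on raised sugar were above those on 0.15 M, with no order among 0.3, 0.7 and 1.0 M. Changes against 0.15 M were 1.42 ± 0.29 (adjusted p = 0.026), 1.31 ± 0.29 (adjusted p = 0.015) and 1.1 ± 0.29 (adjusted p = 0.026) in rising order of dose. The call on 0.3 M was lost without control library 1 or 3 at 0.15 M or control library 2 or 3 at 0.3 M (adjusted p = 0.072 to 0.12). That on 0.7 M was lost without control library 3 at 0.15 M or control library 2 or 3 at 0.7 M (adjusted p = 0.052 to 0.063). That on 1.0 M was lost without control library 1 or 3 at 0.15 M or control library 1 or 3 at 1.0 M (adjusted p = 0.075 to 0.094).

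In 60100 control females Cyp4d1 had 56.4, 66.2, 64.6 and 40.8 on 0.7 M against 23.8, 16.4, 24.9 and 22.6 on 0.15 M (1.33 ± 0.31, adjusted p = 0.0024), groups that did not overlap. The diet change was 0.89 ± 0.33 (adjusted p = 0.036) in p53 RNAi and 0.94 ± 0.31 (adjusted p = 0.018) in Stat92E RNAi. FOXO RNAi libraries were spread on 0.7 M, with 42.2, 15.9, 35 and 65.5, and the diet change was not called (0.46 ± 0.31, adjusted p = 0.25). The p53 call was lost without p53 RNAi library 1 or 3 at 0.15 M or p53 RNAi library 1, 3 or 4 at 0.7 M or with no filter (adjusted p = 0.054 to 0.16). The Stat92E call was lost without Stat92E RNAi library 2 at 0.15 M or Stat92E RNAi library 4 at 0.7 M (adjusted p = 0.072 to 0.085). In males the gene was lower in Tfb1 RNAi, with 2.72, 2.78 and 1.58 on 1.0 M, against 6.90, 4.93 and 8.08 in controls (-1.19 ± 0.23, adjusted p = 0.0038). On 0.15 M it had 2.07, 2.40 and 1.67 in Tfb1 RNAi against 5.58, 2.83 and 4.06 in controls (-0.73 ± 0.23, adjusted p = 0.031). Its call was lost without control library 1 or 3 at 0.15 M or Tfb1 RNAi library 1 or 3 at 0.15 M or with no filter (adjusted p = 0.071 to 0.11).

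Cyp4p1 was higher on high sugar in males and in cg females with little spread. It had 5.37, 5.77 and 5.80 in control males on 1.0 M against 1.27, 1.71 and 1.51 on 0.15 M (1.42 ± 0.10, adjusted p = 9e-06). It had 5.08, 5.79 and 4.49 in Tfb1 RNAi males on 1.0 M against 1.32, 1.27 and 1.42 on 0.15 M (1.38 ± 0.10, adjusted p = 1.1e-05). Genotypes overlapped at both diets, and the change in Tfb1 RNAi from the controls was -0.09 on 0.15 M and -0.12 on 1.0 M, neither called. The cg females had 3.68, 3.53 and 3.85 on 0.7 M against 0.489, 0.466 and 0.667 on 0.15 M (1.61 ± 0.09, adjusted p = 0.00023). Across the r4 w1118 series it had 0.594, 1.08 and 0.290 on 0.15 M, 0.851, 0.743 and 1.0 on 0.3 M, 1.94, 1.12 and 1.21 on 0.7 M and 2.37, 1.41 and 2.51 on 1.0 M. The highest dose was called against 0.15 M (0.91 ± 0.21, adjusted p = 0.013). That call was lost without control library 1 at 1.0 M (adjusted p = 0.052). In r4 60100 females it was under the filter. Its neighbours Cyp4p2 and Cyp4p3 averaged at most 0.0031 and 0.4272 in any experiment.

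Changes of the other Cyp4 genes were smaller, and Cyp4d8 and Cyp4ac1 were called in opposite directions in different experiments. Cyp4d8 was higher on 0.7 M in 60100 controls, with 1.49, 1.84, 1.61 and 1.3 against 0.791, 0.915, 1.06 and 0.449 on 0.15 M (0.51 ± 0.14, adjusted p = 0.0081). It was higher too in FOXO RNAi (0.78 ± 0.14, adjusted p = 9.2e-05) and in p53 RNAi (0.52 ± 0.15, adjusted p = 0.0096). In r4 w1118 females it was higher on 1.0 M (0.66 ± 0.20, adjusted p = 0.049). This call was lost without control library 1 or 3 at 0.15 M or control library 1 at 1.0 M, with no filter or after rescaling (adjusted p = 0.055 to 0.15). In control males it was lower on sugar, 1.06, 0.734 and 1.24 on 1.0 M against 1.76, 1.33 and 1.65 on 0.15 M (-0.36 ± 0.12, adjusted p = 0.041). The call was lost without control library 1 or 3 at 0.15 M or control library 1 or 2 at 1.0 M, with a pseudocount of 0.1 or with no filter (adjusted p = 0.059 to 0.14). Cyp4ac1 was lower on sugar in control males, 2.67, 2.70 and 2.82 on 1.0 M against 5.71, 6.18 and 5.19 (-0.84 ± 0.16, adjusted p = 0.0032). Tfb1 RNAi was lower than control on 0.15 M, with 1.75, 2.52 and 1.56 (-1.20 ± 0.16, adjusted p = 0.00021). In cg females Cyp4ac1 was higher, 3.11, 3.26 and 3.23 on 0.7 M against 2.19, 1.75 and 2.35 (0.45 ± 0.10, adjusted p = 0.017). Its call was lost without control library 2 at 0.15 M or control library 2 at 0.7 M (adjusted p = 0.051 to 0.054). The groups named here for Cyp4d8 and Cyp4ac1 did not overlap where per-library values are given.

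Cyp4d2 had 5.18, 4.79 and 4.04 on 0.7 M against 2.66, 2.10 and 2.34 on 0.15 M in cg females (0.75 ± 0.12, adjusted p = 0.0038), without overlap. In Tfb1 RNAi males on 0.15 M it had 0.382, 0.475 and 1.70 against 3.18, 1.32 and 1.87 in controls (-0.78 ± 0.26, adjusted p = 0.041), groups that overlapped. That call was lost without control library 1 or 3 at 0.15 M or Tfb1 RNAi library 1 or 2 at 0.15 M or with no filter (adjusted p = 0.076 to 0.15). The neighbouring gene Cyp4d14 had 2.10, 2.28 and 0.335 in Tfb1 RNAi against 3.49, 3.74 and 3.38 in control males on 0.15 M (-0.93 ± 0.28, adjusted p = 0.024), and 1 of the RNAi libraries was far below the others. This call was lost without any control library at 0.15 M or with no filter (adjusted p = 0.054 to 0.061). Cyp4s3 was erratic in males: controls on 0.15 M had 5.37, 0.00478 and 4.77, Tfb1 RNAi males on 0.15 M had 3.05, 0.00358 and 2.41, and all male libraries on 1.0 M were under 0.002. The 0.15 M groups thus hold 1 library near 0 each, and no male comparison called the gene. In cg females Cyp4s3 was higher on 0.7 M, 6.52, 6.24 and 5.82 against 3.99, 3.14 and 2.66 (0.77 ± 0.14, adjusted p = 0.006), and in Stat92E RNAi females it was lower on 0.7 M (-0.42 ± 0.15, adjusted p = 0.035). The call was lost without Stat92E RNAi library 1, 2 or 4 at 0.15 M or Stat92E RNAi library 1 or 3 at 0.7 M, with no filter or after rescaling (adjusted p = 0.056 to 0.13).

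**Figure D3:**
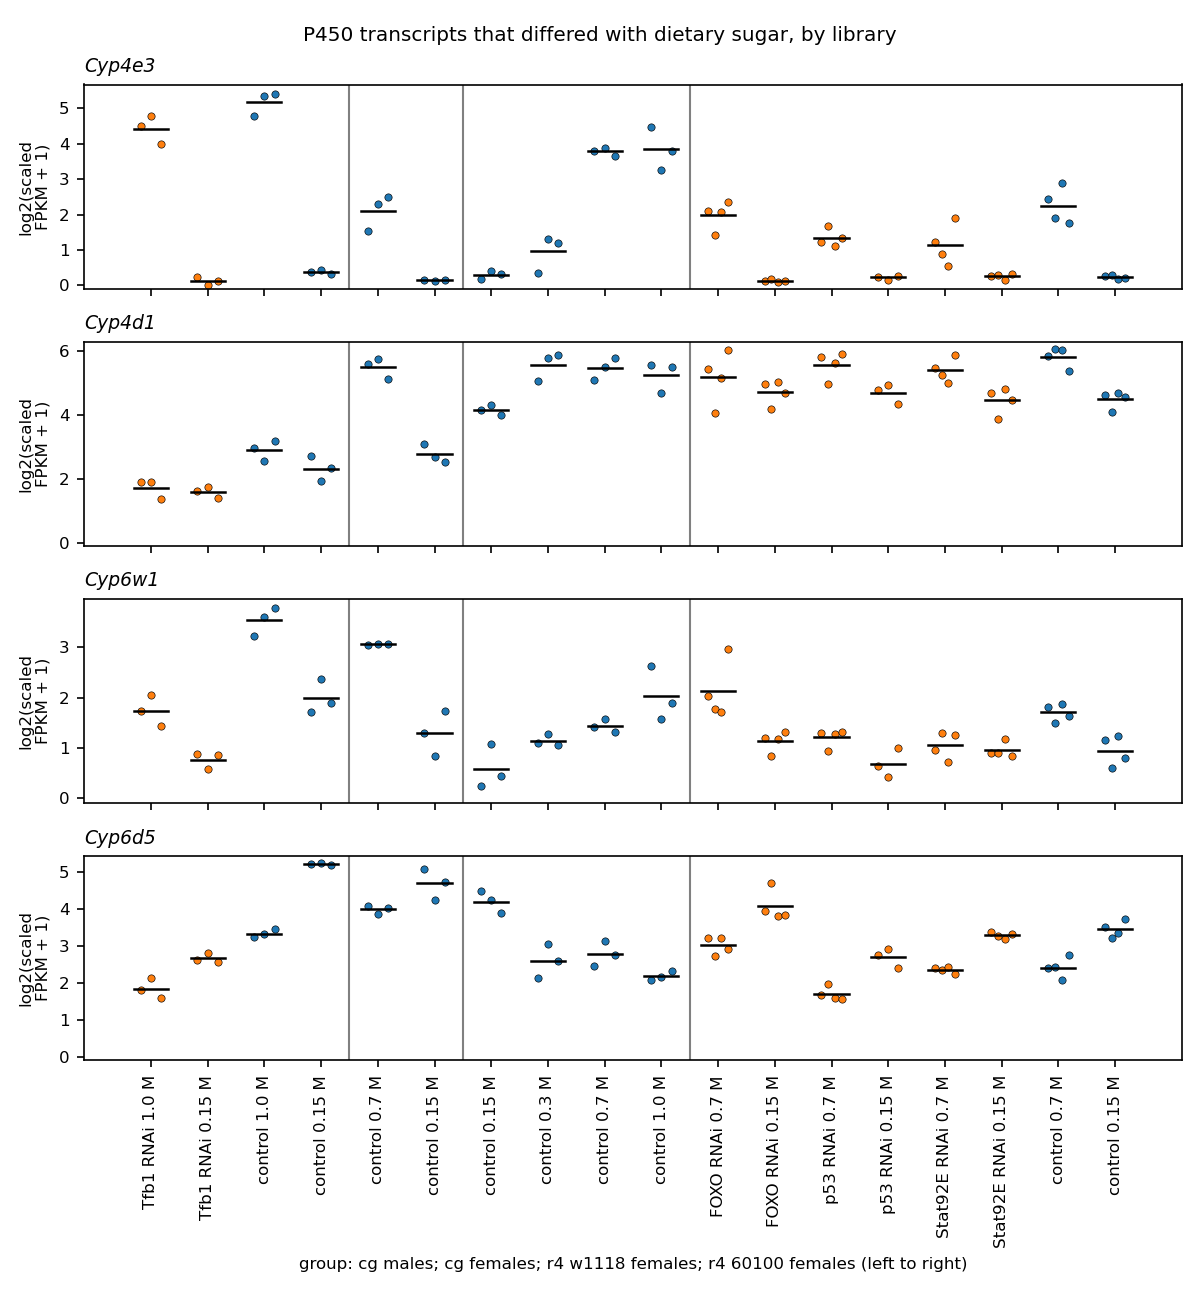
Values of Cyp4e3, Cyp4d1, Cyp6w1 and Cyp6d5 in every library as log2(scaled FPKM + 1), by group, with experiments parted by grey lines. Dots are libraries (orange RNAi, blue control) and black bars the group means; in scaled FPKM, Cyp4e3 lies between 26.5 and 41.4 in control males on 1.0 M and between 0.242 and 0.352 on 0.15 M.

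Among Cyp6 genes, Cyp6d5 was the member called lower on raised sugar in the controls of every experiment. RNAi lines differed from their controls in both directions for this gene. In control males it had 8.38, 8.94 and 10 on 1.0 M against 36.5, 37 and 35.5 on 0.15 M, a change of -1.89 ± 0.14 (adjusted p = 1.1e-05). Tfb1 RNAi males were lower again, with 2.50, 3.38 and 2.01 on 1.0 M (-1.49 ± 0.14, adjusted p = 2.8e-05 against controls) and 5.19, 5.95 and 4.90 on 0.15 M (-2.56 ± 0.14, adjusted p = 4e-07). The 4 male groups did not overlap. The diet change within Tfb1 RNAi was -0.82 ± 0.14 (adjusted p = 0.0024), and its difference from the change in controls was 1.07 ± 0.19 (adjusted p = 0.0072).

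Across the r4 w1118 series Cyp6d5 had 21.3, 17.8 and 13.8 on 0.15 M, 3.39, 7.24 and 5.0 on 0.3 M, 4.47, 7.83 and 5.71 on 0.7 M and 3.23, 3.46 and 3.97 on 1.0 M. All raised doses lay under the 0.15 M libraries, so the fall was present on 0.3 M. The changes were -1.61 ± 0.25 (adjusted p = 0.0076), -1.42 ± 0.25 (adjusted p = 0.0047) and -2.02 ± 0.25 (adjusted p = 0.00036) in rising order of dose. Its linear trend per 1 M sucrose was -1.75 ± 0.47 (adjusted p = 0.031). Its call was lost without any control library at 0.15 M or any control library at 1.0 M or with no filter (adjusted p = 0.057 to 0.081). The cg females had 16.0, 13.7 and 15.3 on 0.7 M against 33.1, 18.1 and 25.7 on 0.15 M (-0.70 ± 0.22, adjusted p = 0.043), without overlap. That call was lost without control library 1 or 3 at 0.15 M or any control library at 0.7 M or with no filter (adjusted p = 0.085 to 0.11).

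Cyp6d5 in r4 60100 females was higher with FOXO RNAi and lower with p53 RNAi, each against the same controls. On 0.15 M it had 14.3, 25, 13.1 and 13.3 in FOXO RNAi, 5.78, 6.55 and 4.27 in p53 RNAi and 10.5, 8.32, 9.19 and 12.3 in controls. The changes were 0.62 ± 0.17 (adjusted p = 0.013) and -0.76 ± 0.18 (adjusted p = 0.024). On 0.7 M it had 8.33, 5.67, 8.24 and 6.56 in FOXO RNAi, 2.16, 2.92, 2.03 and 1.96 in p53 RNAi and 4.29, 4.37, 3.21 and 5.74 in controls. These changes were 0.61 ± 0.17 (adjusted p = 0.0086) and -0.71 ± 0.17 (adjusted p = 0.0077). The FOXO RNAi call on 0.15 M was lost without the second libraries (adjusted p = 0.1). FOXO RNAi overlapped the controls on 0.7 M only, by 1 library, and p53 RNAi at neither diet. The p53 call on 0.15 M was lost without control library 1 or 4 at 0.15 M or p53 RNAi library 1 or 3 at 0.15 M (adjusted p = 0.067 to 0.17). In Stat92E RNAi its changes of -0.16 on 0.15 M and -0.06 on 0.7 M were not called. The fall from diet was called in all 4 genotypes, with -1.05 in FOXO RNAi, -0.99 in p53 RNAi, -0.94 in Stat92E RNAi and -1.04 in controls.

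Cyp6w1 was higher with sugar in the controls of every experiment and lower in Tfb1 RNAi. In control males it had 8.30, 11.2 and 12.8 on 1.0 M against 2.29, 4.17 and 2.74 on 0.15 M (1.54 ± 0.21, adjusted p = 0.0005). In Tfb1 RNAi males it had 2.31, 3.13 and 1.70 on 1.0 M and 0.833, 0.488 and 0.818 on 0.15 M, changes of -1.80 ± 0.21 (adjusted p = 0.00017) and -1.23 ± 0.21 (adjusted p = 0.0012) from the controls. Neither comparison of genotypes overlapped. The diet change within Tfb1 RNAi was 0.96 ± 0.21 (adjusted p = 0.012). This call was lost without Tfb1 RNAi library 2 at 0.15 M or Tfb1 RNAi library 2 at 1.0 M (adjusted p = 0.051 to 0.054). The cg females had 7.30, 7.37 and 7.42 on 0.7 M against 1.46, 0.780 and 2.35 (1.77 ± 0.22, adjusted p = 0.0015), and the high-sugar libraries were almost equal.

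Across the r4 w1118 series Cyp6w1 had 0.186, 1.11 and 0.359 on 0.15 M, 1.14, 1.44 and 1.08 on 0.3 M, 1.67, 1.98 and 1.48 on 0.7 M and 5.19, 1.98 and 2.71 on 1.0 M. Only the highest dose was called (1.45 ± 0.26, adjusted p = 0.0042), and the trend per 1 M was 1.51 ± 0.28 (adjusted p = 0.0038). In 60100 controls it had 2.51, 1.83, 2.66 and 2.13 on 0.7 M against 1.24, 0.508, 1.37 and 0.733 on 0.15 M (0.76 ± 0.20, adjusted p = 0.0069). FOXO RNAi had 3.10, 2.43, 2.29 and 6.79 against 1.3, 0.802, 1.25 and 1.49 at the same diets (0.99 ± 0.20, adjusted p = 0.00038). Neither pair overlapped. Stat92E RNAi females on 0.7 M had 0.942, 1.45, 0.641 and 1.39, under all controls (-0.65 ± 0.20, adjusted p = 0.035). The call was lost without control library 1, 3 or 4 at 0.7 M or Stat92E RNAi library 1 or 3 at 0.7 M or with no filter (adjusted p = 0.075 to 0.11).

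Cyp6g1 was not called with sugar in control females and was lower in Tfb1, FOXO and p53 RNAi. FOXO RNAi females had 13.5, 13.8, 14.8 and 10.5 on 0.15 M against 29.5, 22.2, 26.3 and 31.5 in controls (-1.0 ± 0.19, adjusted p = 0.00052). It had 10.8, 4.52, 10.6 and 11.6 on 0.7 M against 22.3, 22.7, 23 and 23.5 (-1.27 ± 0.19, adjusted p = 7.9e-06). p53 RNAi females had 14.8, 13.1, 14.1 and 14.2 on 0.7 M (-0.67 ± 0.19, adjusted p = 0.022). Its call was lost without control library 1 or 4 at 0.7 M or p53 RNAi library 2 at 0.7 M (adjusted p = 0.055 to 0.066). In each of these comparisons every RNAi library was under every control library. The diet change was -0.51 ± 0.19 (adjusted p = 0.032) within FOXO RNAi, -0.54 ± 0.20 (adjusted p = 0.039) within p53 RNAi and -0.24 ± 0.19 (adjusted p = 0.34) in controls. The FOXO RNAi call was lost without FOXO RNAi library 1, 2 or 3 at 0.15 M or FOXO RNAi library 2 at 0.7 M, after rescaling, without both FOXO RNAi libraries numbered 2 or without the second libraries (adjusted p = 0.063 to 0.31). The p53 RNAi call was lost without p53 RNAi library 1 or 2 at 0.15 M or any p53 RNAi library at 0.7 M, with no filter or after rescaling (adjusted p = 0.052 to 0.22). In males Tfb1 RNAi had 11.3, 10.8 and 8.98 on 0.15 M against 33.8, 25.1 and 26.7 in controls (-1.37 ± 0.14, adjusted p = 2.3e-05). It had 4.99, 4.30 and 4.22 on 1.0 M against 12.6, 12.9 and 14.6 (-1.38 ± 0.14, adjusted p = 4.1e-05). Sugar lowered it in both male genotypes, with changes of -1.04 in Tfb1 RNAi and -1.03 in controls, and the male groups did not overlap in these comparisons.

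Cyp6d2 had the largest difference between an RNAi line and its control. Tfb1 RNAi males had 41.6, 46.9 and 38 on 0.15 M against 2.63, 2.19 and 1.72 in controls, a log2 change of 3.77 ± 0.14 (adjusted p = 4.8e-08). It had 24.8, 23.7 and 18.2 on 1.0 M against 1.53, 1.53 and 1.41 (3.21 ± 0.14, adjusted p = 3.3e-07). The lowest RNAi library was many times the highest control library at each diet. The 49 female libraries had values of 0.891 to 4.14, in units scaled per experiment, and no other comparison of an RNAi line with its control called it. Within Tfb1 RNAi sugar lowered it (-0.90 ± 0.14, adjusted p = 0.002). Its nearest neighbours in the annotation were low on 0.15 M: CG3875 averaged 0.785 in Tfb1 RNAi and 1.04 in control males, CG30196 0.920 and 1.15, and CG3746 was listed at 0.

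**Figure D4:**
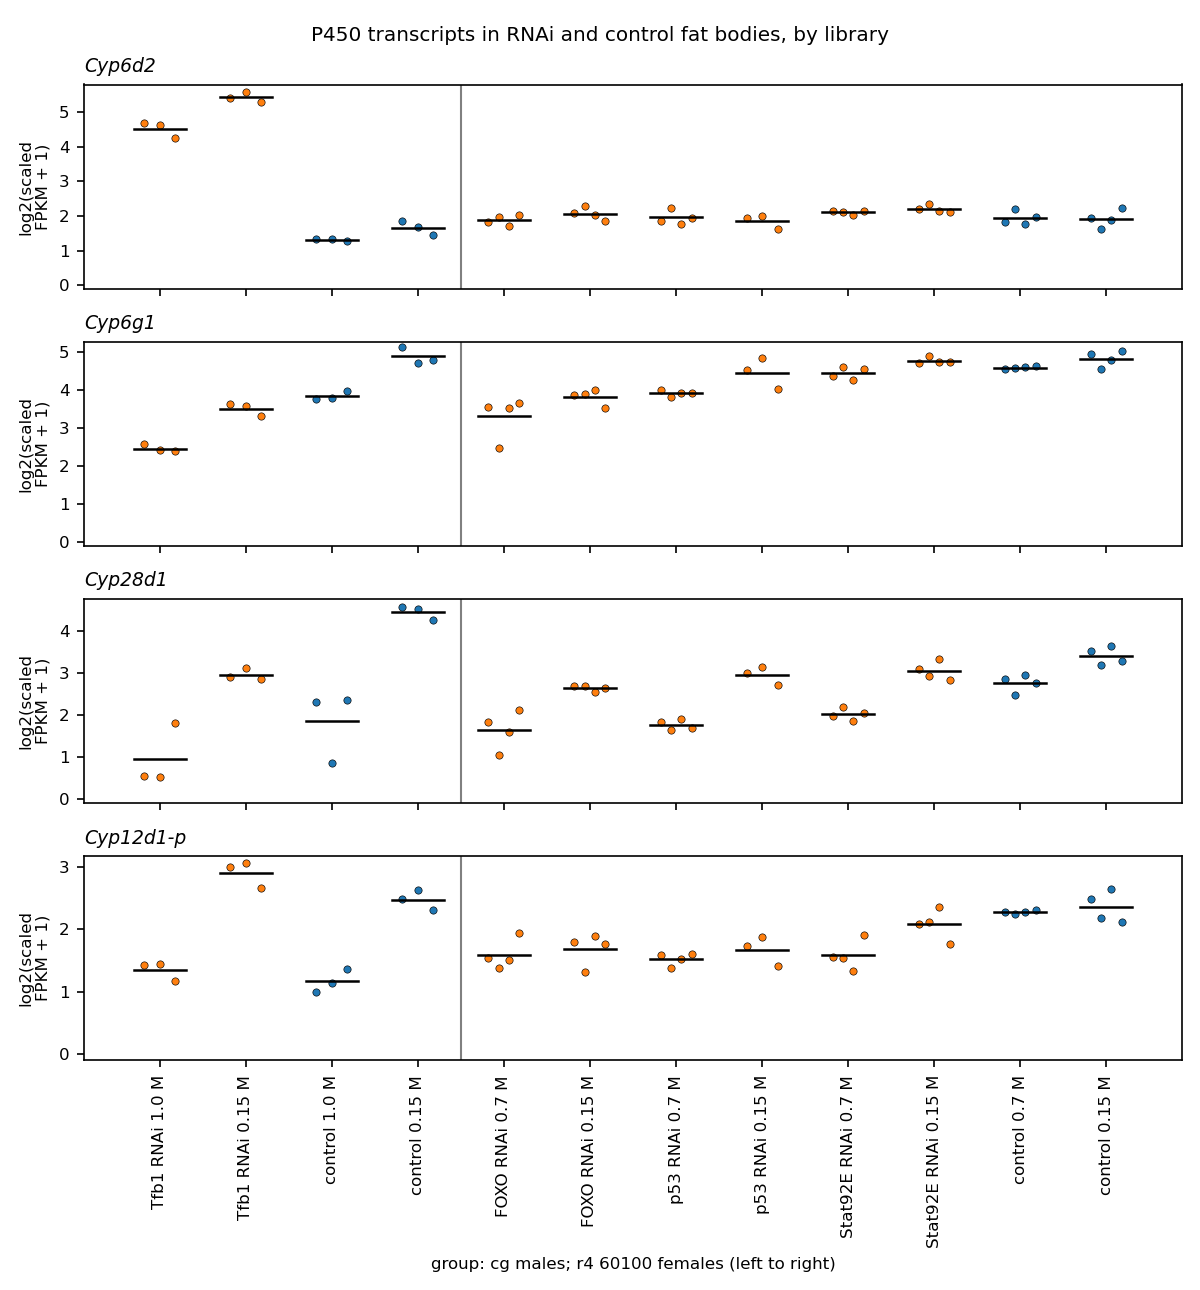
Values of Cyp6d2, Cyp6g1, Cyp28d1 and Cyp12d1-p in every library of cg males (left of the grey line) and r4 60100 females (right), as log2(scaled FPKM + 1). Dots are libraries (orange RNAi, blue control) and black bars group means; Cyp6d2 lies between 38 and 46.9 scaled FPKM in Tfb1 RNAi males on 0.15 M, against 1.72 to 2.63 in their controls.

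The other Cyp6 genes that could be tested were low, with no library above 3.98 in the experiments where they were tested. Cyp6a8, a gene that caffeine and phenobarbital induce, had 0.864, 1.34 and 0.557 in Tfb1 RNAi males on 1.0 M against 3.13, 3.25 and 3.67 in controls (-1.20 ± 0.17, adjusted p = 0.00066). Its call in Tfb1 RNAi on 0.15 M (-0.53 ± 0.17, adjusted p = 0.037) was lost without control library 2 or 3 at 0.15 M or any Tfb1 RNAi library at 0.15 M or with no filter (adjusted p = 0.06 to 0.14). The rise with diet in control males (0.55 ± 0.17, adjusted p = 0.038) was lost without control library 1 or 2 at 0.15 M or any control library at 1.0 M, with a pseudocount of 0.1 or with no filter (adjusted p = 0.058 to 0.14). The fall with diet in cg females (-0.65 ± 0.20, adjusted p = 0.045) was lost without control library 1 or 3 at 0.15 M or any control library at 0.7 M, with no filter or after rescaling (adjusted p = 0.051 to 0.11). Cyp6a13 was tested in r4 60100 females, where 0.7 M sugar raised it in all genotypes, with changes of 0.65 in p53 RNAi, 0.47 in FOXO RNAi, 0.35 in Stat92E RNAi and 0.45 in controls. Controls had 2.44, 3.05, 2.39 and 2.22 on 0.7 M against 1.69, 1.51, 1.73 and 1.37 on 0.15 M (0.45 ± 0.10, adjusted p = 0.0021), without overlap. The Stat92E RNAi call was lost without Stat92E RNAi library 4 at 0.7 M (adjusted p = 0.055).

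Cyp6v1 went the other way there, with 0.779, 0.774, 0.630 and 1.02 on 0.7 M against 1.41, 1.04, 1.35 and 2.12 on 0.15 M in controls (-0.45 ± 0.11, adjusted p = 0.0037). Stat92E RNAi was higher than control on 0.7 M, with 1.40, 1.69, 1.43 and 1.24 (0.44 ± 0.11, adjusted p = 0.012). Its diet change within FOXO RNAi (-0.29 ± 0.11, adjusted p = 0.035) was lost without FOXO RNAi library 1 or 3 at 0.15 M or FOXO RNAi library 2, 3 or 4 at 0.7 M or after rescaling (adjusted p = 0.054 to 0.14). Cyp6a23 was called in control males alone, 1.24, 1.22 and 2.50 on 1.0 M against 3.98, 3.09 and 2.57 (-0.69 ± 0.21, adjusted p = 0.033). That call was lost without control library 1 or 2 at 0.15 M or control library 1 or 2 at 1.0 M or with no filter (adjusted p = 0.063 to 0.12). Cyp6t3, known from the ring gland, was at 0.0736 to 2.29 in r4 60100 females and at 0 or at most 0.0657 in every library of the other experiments. It was called in no comparison.

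Both expressed Cyp28 genes fell with sugar in males, and Cyp28d1 also in all genotypes of r4 60100 females. The family is known from Drosophila mettleri, where cactus alkaloids induce Cyp28 genes. Cyp28d1 had 3.98, 0.819 and 4.13 in control males on 1.0 M against 22.5, 21.9 and 18.0 on 0.15 M (-2.59 ± 0.42, adjusted p = 0.0012). It had 0.451, 0.446 and 2.48 in Tfb1 RNAi males on 1.0 M against 6.44, 7.67 and 6.21 on 0.15 M (-2.0 ± 0.42, adjusted p = 0.0088). The high-sugar libraries were spread, with 1 control library at 0.819. Between genotypes it was lower in Tfb1 RNAi on 0.15 M (-1.49 ± 0.42, adjusted p = 0.018). This call was lost without control library 1 at 0.15 M or Tfb1 RNAi library 1 or 3 at 0.15 M or with a pseudocount of 0.1 (adjusted p = 0.051 to 0.088).

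In r4 60100 females on 0.7 M, Cyp28d1 had 2.57, 1.07, 2.0 and 3.31 in FOXO RNAi, 2.55, 2.12, 2.75 and 2.21 in p53 RNAi, 2.89, 3.57, 2.64 and 3.10 in Stat92E RNAi and 6.17, 4.53, 6.66 and 5.80 in controls. No RNAi library reached the control range, and the changes were -1.11 ± 0.16 (adjusted p = 6.4e-06), -0.99 ± 0.16 (adjusted p = 0.00026) and -0.74 ± 0.16 (adjusted p = 0.0049) in that order. On 0.15 M it had 5.40, 5.41, 4.82 and 5.22 in FOXO RNAi against 10.4, 8.05, 11.4 and 8.70 in controls (-0.76 ± 0.16, adjusted p = 0.0017), and p53 and Stat92E RNAi were not called (-0.45 and -0.36). Sugar lowered it, with changes of -0.99 in FOXO RNAi, -1.18 in p53 RNAi, -1.02 in Stat92E RNAi and -0.65 in controls. In cg females the diet change was -0.19 and in r4 w1118 females on 0.7 M -0.63, neither called.

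Cyp28a5 had 3.62, 3.40 and 4.07 in control males on 1.0 M against 17.7, 13.8 and 12.8 on 0.15 M (-1.74 ± 0.16, adjusted p = 3.6e-05). It had 4.51, 4.88 and 4.53 in Tfb1 RNAi males on 1.0 M against 9.02, 10.3 and 6.62 (-0.76 ± 0.16, adjusted p = 0.0087). On 0.15 M the Tfb1 RNAi libraries lay under the controls (-0.71 ± 0.16, adjusted p = 0.0051), and on 1.0 M the change was 0.27 and not called. The difference of 0.98 ± 0.22 (adjusted p = 0.023) was lost without control library 1 or 2 at 1.0 M or Tfb1 RNAi library 1 or 2 at 1.0 M or with no filter (adjusted p = 0.05 to 0.063). In FOXO RNAi females on 0.7 M it had 1.88, 1.82, 1.57 and 2.97 against 3.92, 4.81, 4.25 and 3.54 in controls (-0.76 ± 0.16, adjusted p = 0.00062), without overlap. The p53 RNAi call on 0.7 M (-0.49 ± 0.16, adjusted p = 0.044) was lost without any control library at 0.7 M or any p53 RNAi library at 0.7 M, with a pseudocount of 0.1, with no filter, after rescaling or without the second libraries (adjusted p = 0.05 to 0.094). The Stat92E RNAi call there (-0.47 ± 0.16, adjusted p = 0.049), with overlapping groups, was lost without any control library at 0.7 M or Stat92E RNAi library 1 or 3 at 0.7 M, with a pseudocount of 0.1, with no filter or after rescaling (adjusted p = 0.052 to 0.18). The diet call within FOXO RNAi (-0.47 ± 0.16, adjusted p = 0.02) was lost without FOXO RNAi library 1 or 3 at 0.15 M or FOXO RNAi library 3 at 0.7 M or after rescaling (adjusted p = 0.054 to 0.098).

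Of the 5 Cyp9 genes, 3 reached the filter in all 4 experiments, and Cyp9b2 had the highest mean of them in each. Cyp9b2 fell with sugar in control males, to 6.12, 6.47 and 7.40 on 1.0 M, against 18.0, 14.2 and 10.8 on 0.15 M (-0.97 ± 0.16, adjusted p = 0.0016). It rose in cg females, with 8.65, 8.19 and 8.62 on 0.7 M against 4.29, 3.72 and 5.04 (0.83 ± 0.12, adjusted p = 0.0026). Tfb1 RNAi males had 5.52, 6.89 and 5.13 on 0.15 M (-1.14 ± 0.16, adjusted p = 0.00032) and 2.93, 2.99 and 2.89 on 1.0 M (-0.96 ± 0.16, adjusted p = 0.0018), under all controls of the same diet. Stat92E RNAi females had 5.48, 6.22, 3.69 and 8.25 on 0.7 M against 11.6, 13.8, 11.3 and 9.47 in controls (-0.89 ± 0.21, adjusted p = 0.011), again without overlap. p53 RNAi had 6.96, 5.46, 5.93 and 8.72 (-0.69 ± 0.21, adjusted p = 0.034). The call was lost without any control library at 0.7 M or p53 RNAi library 1, 2 or 3 at 0.7 M, with no filter, after rescaling or without the second libraries (adjusted p = 0.051 to 0.1). The tandem neighbour Cyp9b1 moved in the opposite direction, with 4.71, 5.10 and 3.70 in Tfb1 RNAi males on 0.15 M against 2.29, 2.19 and 1.63 in controls (0.86 ± 0.19, adjusted p = 0.005). It had 4.08, 5.14 and 2.47 against 1.22, 1.36 and 1.28 on 1.0 M (1.06 ± 0.19, adjusted p = 0.0023).

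Cyp9f2 was raised by 0.7 M sugar in the 3 female experiments. It had 5.96, 5.82 and 4.44 against 2.99, 2.74 and 2.56 in cg females (0.76 ± 0.13, adjusted p = 0.0047) and 4.50, 5.64 and 6.06 against 2.48, 3.55 and 2.06 in r4 w1118 females (0.81 ± 0.22, adjusted p = 0.034). It had 4.65, 6.23, 5.70 and 4.14 against 2.95, 2.35, 3.44 and 2.15 in 60100 controls (0.73 ± 0.14, adjusted p = 0.0005). None of these pairs overlapped, although the r4 w1118 call was lost without control library 1 or 3 at 0.15 M or control library 2 or 3 at 0.7 M (adjusted p = 0.092 to 0.11). The diet change was 0.69 in p53 RNAi (called), 0.23 in FOXO RNAi and 0.06 in Stat92E RNAi (not called). FOXO RNAi was lower than controls on 0.7 M (-0.53 ± 0.14, adjusted p = 0.0057) with 1 library inside their range. Tfb1 RNAi males were lower, with 1.54, 2.85 and 1.39 against 4.60, 6.67 and 3.95 in controls on 0.15 M (-1.06 ± 0.21, adjusted p = 0.0029). The values on 1.0 M were 1.51, 1.63 and 1.41 against 4.20, 5.76 and 3.70 (-1.12 ± 0.21, adjusted p = 0.0033).

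Cyp9c1 was lower in Tfb1 RNAi males on 0.15 M, 0.609, 0.625 and 0.753 against 2.17, 1.64 and 1.64 in controls (-0.75 ± 0.10, adjusted p = 0.00027). Control males on 1.0 M had 1.0, 1.09 and 0.903 (-0.49 ± 0.10, adjusted p = 0.0064). FOXO RNAi females on 0.7 M had 3.62, 2.80, 3.87 and 3.85 against 4.90, 5.96, 5.05 and 4.65 in controls (-0.44 ± 0.11, adjusted p = 0.004). These groups did not overlap. The diet call within FOXO RNAi (-0.30 ± 0.11, adjusted p = 0.036) was lost without FOXO RNAi library 1, 3 or 4 at 0.15 M or FOXO RNAi library 1 or 2 at 0.7 M, after rescaling, without both FOXO RNAi libraries numbered 2 or without the second libraries (adjusted p = 0.052 to 0.3). Cyp9h1 in r4 60100 females had 0.657, 1.01, 0.514 and 0.687 on 0.7 M against 1.57, 1.77, 1.63 and 1.26 on 0.15 M in Stat92E RNAi (-0.58 ± 0.11, adjusted p = 0.00037). It had 0.789, 1.48, 0.674 and 1.47 against 2.01, 1.93, 1.92 and 1.91 in FOXO RNAi (-0.51 ± 0.11, adjusted p = 0.00095), both falls without overlap. Its call for diet in controls (-0.31 ± 0.11, adjusted p = 0.039), where the groups overlapped, was lost without control library 1, 3 or 4 at 0.15 M or control library 1, 3 or 4 at 0.7 M or after rescaling (adjusted p = 0.067 to 0.14). Its call in FOXO RNAi on 0.15 M (0.33 ± 0.11, adjusted p = 0.046) was lost without any control library at 0.15 M or any FOXO RNAi library at 0.15 M, with a pseudocount of 0.1 or with no filter (adjusted p = 0.055 to 0.11).

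Cyp12 enzymes belong to the mitochondrial clan. Cyp12d1-p and Cyp12d1-d are near-identical tandem copies, between which reads cannot be divided with certainty, so what is counted here as 2 members may be 1 signal. In males sugar lowered Cyp12d1-p to 1.0, 1.21 and 1.56 on 1.0 M, against 4.60, 5.18 and 3.93 on 0.15 M, in controls (-1.30 ± 0.14, adjusted p = 0.00012). In Tfb1 RNAi it had 1.69, 1.72 and 1.25 against 6.93, 7.38 and 5.33 (-1.56 ± 0.14, adjusted p = 6.3e-05). The copy Cyp12d1-d changed by -1.48 in Tfb1 RNAi and -1.20 in controls. The groups of each pair did not overlap. Tfb1 RNAi was higher than control on 0.15 M for both copies (0.43 ± 0.14, adjusted p = 0.037 for Cyp12d1-p). The Cyp12d1-p call was lost without control library 1 or 3 at 0.15 M or Tfb1 RNAi library 1 or 2 at 0.15 M, with a pseudocount of 0.1 or with no filter (adjusted p = 0.071 to 0.13). The Cyp12d1-d call was lost without any control library at 0.15 M or Tfb1 RNAi library 1 or 2 at 0.15 M, with a pseudocount of 0.1 or with no filter (adjusted p = 0.05 to 0.13).

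In r4 60100 females on 0.7 M, Cyp12d1-p had 1.90, 1.61, 1.85 and 2.83 in FOXO RNAi, 2.0, 1.60, 1.87 and 2.04 in p53 RNAi, 1.93, 1.91, 1.52 and 2.76 in Stat92E RNAi and 3.85, 3.76, 3.84 and 3.93 in controls, which were nearly equal to each other. All RNAi libraries lay under the controls, with changes of -0.68 ± 0.15 (adjusted p = 0.00098), -0.75 ± 0.15 (adjusted p = 0.0019) and -0.69 ± 0.15 (adjusted p = 0.0048) in that order. On 0.15 M it had 2.47, 1.49, 2.71 and 2.40 in FOXO RNAi, 2.31, 2.65 and 1.67 in p53 RNAi and 4.59, 3.51, 5.22 and 3.31 in controls. The changes were -0.66 ± 0.15 (adjusted p = 0.0032) and -0.68 ± 0.16 (adjusted p = 0.023). The p53 RNAi call was lost without control library 1 or 3 at 0.15 M or p53 RNAi library 1 or 3 at 0.15 M or after rescaling (adjusted p = 0.069 to 0.16). The diet change within Stat92E RNAi (-0.49 ± 0.15, adjusted p = 0.012) was lost without Stat92E RNAi library 3 at 0.15 M (adjusted p = 0.053). For r4 w1118 females the rise on 0.3 M (0.62 ± 0.16, adjusted p = 0.038) was lost without control library 1 or 3 at 0.15 M or control library 2 or 3 at 0.3 M (adjusted p = 0.11 to 0.15).

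Cyp12a4, whose overexpression confers resistance to lufenuron, fell with sugar in both w1118 female experiments. It had 0.488, 0.423 and 0.706 on 0.7 M against 3.75, 3.53 and 5.09 on 0.15 M in cg females (-1.73 ± 0.14, adjusted p = 0.00046). Across the r4 w1118 series it had 2.01, 2.39 and 1.38 on 0.15 M, 1.48, 1.91 and 1.14 on 0.3 M, 0.657, 0.758 and 0.712 on 0.7 M and 0.367, 0.739 and 0.543 on 1.0 M. The 2 highest doses were called, with -0.76 ± 0.16 (adjusted p = 0.012) on 0.7 M and -0.91 ± 0.16 (adjusted p = 0.0035) on 1.0 M. The trend per 1 M was -1.10 ± 0.17 (adjusted p = 0.0011). In FOXO RNAi females on 0.7 M it had 0.271, 0.779, 0.305 and 0.575 against 1.29, 1.51, 1.31 and 1.15 in controls (-0.66 ± 0.14, adjusted p = 0.00073). The diet change within FOXO RNAi was -0.59 ± 0.14 (adjusted p = 0.0013), with overlap. In 60100 controls the diet change was -0.23 ± 0.14 (adjusted p = 0.21), not called. Its fall with sugar in control males (-0.66 ± 0.17, adjusted p = 0.016) was lost without control library 1 at 0.15 M or control library 2 at 1.0 M (adjusted p = 0.051 to 0.063). That in Tfb1 RNAi males (-0.73 ± 0.17, adjusted p = 0.017) was lost without Tfb1 RNAi library 1 or 2 at 0.15 M (adjusted p = 0.063 to 0.068). That in Stat92E RNAi females (-0.36 ± 0.14, adjusted p = 0.041) was lost without Stat92E RNAi library 2 or 3 at 0.15 M or Stat92E RNAi library 1, 2 or 4 at 0.7 M, with a pseudocount of 0.1, with no filter, after rescaling or without the second libraries (adjusted p = 0.065 to 0.12).

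Cyp12c1 was raised in Tfb1 RNAi males, which had 10.3, 10.5 and 8.61 on 0.15 M against 3.88, 2.91 and 3.19 in controls (1.32 ± 0.15, adjusted p = 7.3e-05). They had 6.11, 5.24 and 4.08 on 1.0 M against 1.84, 1.27 and 1.92 (1.19 ± 0.15, adjusted p = 0.00028). No library overlapped between genotypes. It was lower on sugar in both male genotypes (-0.83 in Tfb1 RNAi and -0.69 in controls), in 60100 controls (-0.48 ± 0.12, adjusted p = 0.0039), in p53 RNAi (-0.61) and in Stat92E RNAi (-0.56). It was also lower in FOXO RNAi on 0.15 M (-0.49 ± 0.12, adjusted p = 0.0056, 1 library overlapping) and in p53 RNAi on 0.7 M (-0.42 ± 0.12, adjusted p = 0.021). Its call was lost without control library 1 or 4 at 0.7 M or p53 RNAi library 2 at 0.7 M (adjusted p = 0.053 to 0.07). Its fall in r4 w1118 females on 1.0 M (-0.40 ± 0.11, adjusted p = 0.027) was lost without control library 2 or 3 at 0.15 M or any control library at 1.0 M (adjusted p = 0.054 to 0.076). Its trend there (-0.44 ± 0.12, adjusted p = 0.028) was lost without control library 2 or 3 at 0.15 M or any control library at 1.0 M (adjusted p = 0.05 to 0.083). Its rise in cg females (0.50 ± 0.15, adjusted p = 0.042) was lost without control library 2 or 3 at 0.15 M or control library 1 or 3 at 0.7 M or with no filter (adjusted p = 0.088 to 0.13). Cyp12e1 was lower on sugar in control males, 1.07, 1.18 and 1.54 on 1.0 M against 2.79, 2.97 and 2.52 (-0.74 ± 0.14, adjusted p = 0.0029). Its call in Tfb1 RNAi on 0.15 M (-0.48 ± 0.14, adjusted p = 0.021) was lost without control library 1 or 2 at 0.15 M or Tfb1 RNAi library 1 or 3 at 0.15 M (adjusted p = 0.055 to 0.082). Its rise in cg females (0.45 ± 0.11, adjusted p = 0.022) was lost without control library 1 or 3 at 0.15 M or control library 1 or 3 at 0.7 M (adjusted p = 0.053 to 0.069).

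Of the other subfamilies, Cyp309a1 was abundant and was called in a single female comparison. In males it was higher in Tfb1 RNAi, 20.9, 21.3 and 17.8 against 14.1, 9.86 and 9.82 on 0.15 M (0.79 ± 0.15, adjusted p = 0.0018). It had 10.8, 9.80 and 9.39 against 6.86, 5.50 and 6.72 on 1.0 M (0.58 ± 0.15, adjusted p = 0.016), and that call was lost without control library 2 at 1.0 M or Tfb1 RNAi library 1 at 1.0 M (adjusted p = 0.054 to 0.06). Sugar lowered it in Tfb1 RNAi (-0.93 ± 0.15, adjusted p = 0.0018) and in controls (-0.72 ± 0.15, adjusted p = 0.0048), and no male groups of these comparisons overlapped. In FOXO RNAi females on 0.7 M it was lower with overlap (-0.52 ± 0.19, adjusted p = 0.043). That call was lost without control library 1, 2 or 3 at 0.7 M or FOXO RNAi library 1, 2 or 3 at 0.7 M, with no filter, after rescaling, without both FOXO RNAi libraries numbered 2 or without the second libraries (adjusted p = 0.057 to 0.42). Cyp310a1 had 5.36, 5.35 and 3.35 in Tfb1 RNAi males on 1.0 M against 1.78, 1.95 and 1.90 in controls (0.96 ± 0.13, adjusted p = 0.00046). It had 1.38, 1.27 and 1.48 against 1.19, 1.3 and 1.24 on 0.15 M, where the change was 0.08 and not called. The difference between diets was 0.88 ± 0.19 (adjusted p = 0.018), and the diet change within Tfb1 RNAi was 1.24 ± 0.13 (adjusted p = 0.00016). In cg females it had 1.96, 1.77 and 1.98 on 0.7 M against 0.418, 0.445 and 0.382 (1.04 ± 0.09, adjusted p = 0.00054). Cyp304a1 was tested in cg females alone, with 0.901, 3.19 and 2.70 on 0.7 M against 0.822, 0.743 and 0.429, and was not called (0.90 ± 0.30, adjusted p = 0.053).

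**Figure D5:**
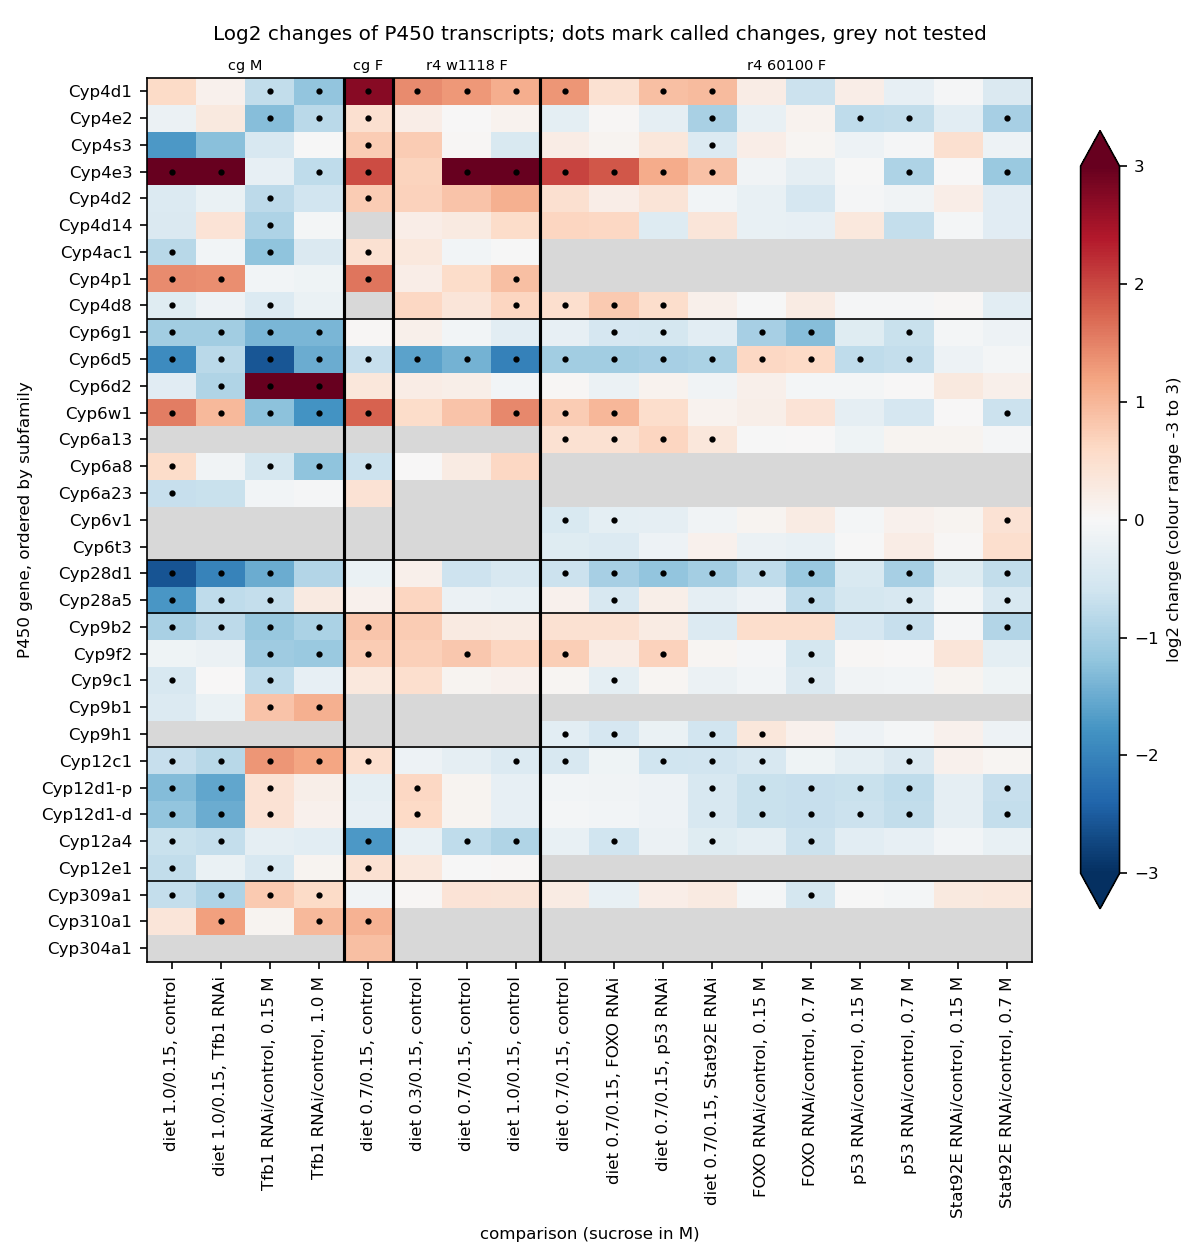
Log2 changes of the 33 testable P450 genes in the diet and RNAi comparisons, on the scale of log2(scaled FPKM + 1). Red is higher and blue lower in the group named before the slash, and colours stop at 3 in either direction. Dots mark adjusted p-values under 0.05 and grey cells genes under the filter. The row of Cyp4e3 is red and the row of Cyp6d5 blue in the diet columns of all experiments.

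Of 7 listed electron partners and cytochrome b5 genes in the table, 3 could be tested: Cpr, the P450 reductase, Cyt-b5, and Cyt-b5-r, a cytochrome b5-related gene. All 3 were higher on 0.7 M in cg females (27.5% of all genes), with changes of 1.18 ± 0.17 (adjusted p = 0.0028) for Cyt-b5-r, 0.62 ± 0.13 (adjusted p = 0.012) for Cyt-b5 and 0.61 ± 0.13 (adjusted p = 0.011) for Cpr. All were higher on 1.0 M in r4 w1118 females too (12.6% of all genes), where the change of Cyt-b5-r was 2.75 ± 0.28 (adjusted p = 0.00012). In 60100 controls none was called, with 0.66 for Cyt-b5-r and 0.40 for Cyt-b5, and in control males none. Cyt-b5-r was lower in Tfb1 RNAi males than in controls on 0.15 M (-2.54 ± 0.18, adjusted p = 2.3e-06) and on 1.0 M (-1.19 ± 0.18, adjusted p = 0.00075). The change from controls differed between diets (1.35 ± 0.25, adjusted p = 0.008). Cpr was lower in FOXO RNAi on 0.15 M (-0.38 ± 0.09, adjusted p = 0.0053) and in Stat92E RNAi on 0.7 M (-0.32 ± 0.09, adjusted p = 0.024).

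The ecdysteroid list held 8 genes of the table, and only shd, the P450 that converts ecdysone to its active form, and sad, which carries out the step before, reached the filter. In r4 60100 females sad had 76.9, 71.8, 73.6 and 83.9 in FOXO RNAi and 35.9, 31.4, 43.6 and 22.6 in controls on 0.7 M, and 6.15, 6.28, 6.34 and 6.51 and 1.57, 6.78, 1.84 and 1.60 on 0.15 M. Every 0.7 M library was above every 0.15 M library of these genotypes. The diet change was 3.40 ± 0.26 (adjusted p = 1e-10) in FOXO RNAi and 3.26 ± 0.26 (adjusted p = 1.2e-09) in controls. FOXO RNAi was higher than control on 0.15 M (1.07 ± 0.26, adjusted p = 0.0052) and 0.7 M (1.21 ± 0.26, adjusted p = 0.00079). In r4 w1118 females sad was called higher on 1.0 M (2.93 ± 0.68, adjusted p = 0.014), with 4.27, 36.3 and 2.82 there, where 1 library was far above the others. The listed ring gland genes, sad among them, summed to 0.00516 to 0.958 on 0.15 M. There sad thus passed the filter only through groups on raised sugar, and this call is a description. Of the other listed genes of the ring gland, where ecdysone is made, none could be tested. The gene shd was higher on sugar in cg females (0.90 ± 0.14, adjusted p = 0.0038) and lower in Tfb1 RNAi males on 0.15 M (-0.73 ± 0.15, adjusted p = 0.0032) and 1.0 M (-0.58 ± 0.15, adjusted p = 0.017).

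Of 11 listed regulators of P450 genes all were found, and at most 2 could be tested in an experiment. The transcription factor gene maf-S, a partner of cnc, was higher on 0.7 M in r4 w1118 females (1.12 ± 0.29, adjusted p = 0.029). It was lower on 0.7 M within FOXO RNAi (-0.89 ± 0.26, adjusted p = 0.009). Among 8 esterases and hydrolases of juvenile hormone and other esters, 4 of 5 tested were higher on 0.7 M in cg females (27.5% of all genes), led by alpha-Est2 (2.19 ± 0.13, adjusted p = 0.00023), Jheh3 (1.58 ± 0.14, adjusted p = 0.00052) and Jheh1 (0.96). In 60100 controls 3 of 5 were higher (18.7%), led by alpha-Est2 (1.18 ± 0.19, adjusted p = 0.0001). In Tfb1 RNAi males on 0.15 M 5 of 6 were lower (25.8%), led by alpha-Est2 (-2.13 ± 0.18, adjusted p = 8.9e-06), Jheh3 (-1.30) and Jheh2 (-1.22).

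Conjugating enzymes were counted beside them. Glutathione transferases, which attach glutathione to reactive compounds, had 0 of 14 tested members higher (5.37% of all genes) and 6 lower (22.9%) on 1.0 M in control males, led by GstD10 (-2.57 ± 0.12, adjusted p = 1.2e-06), GstD1 (-1.18) and GstD3 (-1.13). In Tfb1 RNAi males on 0.15 M 5 were higher (10.4%) and 4 lower (25.8%), led by GstD6 (3.17 ± 0.21, adjusted p = 1.5e-06), GstD3 (2.56) and GstD1 (-2.0), and on 1.0 M 6 were higher (12.2%) and 1 lower (11.9%). In 60100 controls on 0.7 M 2 of 10 were higher (18.7%) and 2 lower (12.4%). In p53 RNAi on 0.7 M 0 were higher (4.6%) and 4 lower (7.74%), and in FOXO RNAi on 0.7 M 3 were higher (9.76%) and 1 lower (17%), led by GstE9 (1.63 ± 0.18, adjusted p = 1e-07). Of 17 UDP-glycosyltransferases, Ugt86Da alone could be tested, in males, where it was higher in Tfb1 RNAi on 0.15 M (1.06 ± 0.12, adjusted p = 6.7e-05) and on 1.0 M (1.47 ± 0.12, adjusted p = 1.4e-05).

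The libraries also hold RNA of neighbouring tissues. Markers of other tissues moved with several of these comparisons, and their part in the P450 results was not tested. In bulk tissue fewer cells of a type and less RNA per cell cannot be told apart. Fat body markers were high in every library but their sums differed between groups. The range was 2730 to 4340 in control males on 1.0 M against 9230 to 10900 on 0.15 M (7 of 7 lower, where 22.9% of all genes were). It was 10400 to 12200 in cg females on 0.7 M against 5230 to 7120 on 0.15 M (5 of 7 higher, 27.5% of all genes). In Tfb1 RNAi males the sum was 4580 to 5310 on 0.15 M (5 of 7 lower than in controls, 25.8% of all genes), and in FOXO RNAi females 6420 to 7750 on 0.7 M against 9400 to 13000 in controls (5 of 7 lower, 17%). On 0.15 M it was 7760 to 9570 in FOXO RNAi females against 13900 to 14900 in controls (6 of 7 lower, 10.7% of all genes), and that of salivary gland markers was 86.9 to 133 against 156 to 562 (5 of 5 tested lower). p53 RNAi on 0.7 M had 4 of 7 fat body markers lower (7.74% of all genes) and Stat92E RNAi 3 of 7 (6.35%).

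In cg females on 0.7 M the gut marker sum was 2.06 to 2.38, against 5.34 to 79.2 on 0.15 M (2 of 7 tested lower, where 12.3% of all genes were). The sum of Malpighian tubule markers was 2.74 to 2.94 against 18.4 to 28.1 (2 of 2 lower) and that of hemocyte markers 1.99 to 2.78 against 10.4 to 12.8 (3 of 4 lower). In r4 w1118 females gut sums were 57.8 to 149 on 0.15 M, 18.8 to 52.5 on 0.3 M, 3.77 to 6.01 on 0.7 M and 3.48 to 9.0 on 1.0 M, with 5 of 8 tested lower at the 2 highest doses (2.94% and 4.64% of all genes). In 60100 controls the gut sum was 59.2 to 130 on 0.7 M against 4.76 to 115 (4 of 9 higher, 18.7% of all genes). That of muscle markers was 26.4 to 83.8 against 15.4 to 22.2 (8 of 9 higher). The diet comparisons inside the 3 RNAi lines had 7 or 8 of 9 muscle markers higher (17.9% of all genes in FOXO, 21.1% in p53 and 20.6% in Stat92E RNAi). FOXO RNAi females on 0.15 M had gut sums of 103 to 378 (4 of 9 higher, 6.58% of all genes).

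Salivary gland markers, which include the abundant glue genes, summed to 1180 to 1750 in Tfb1 RNAi males on 1.0 M and 2340 to 2490 in controls (2 of 8 higher and 5 lower, where 12.2% and 11.9% of all genes were), and to 1790 to 2540 and 2440 to 3230 on 0.15 M. Of 10 listed oenocyte markers 5 were found, Cyp4g1, itself a member, among them. They summed to at most 1.24 in any library, desat2 and eloF were at 0 throughout and none could be tested.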

How the data were processed

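Libraries depleted of ribosomal RNA (RiboZero) from larval fat body had been sequenced on an Illumina HiSeq, per the labels' protocols. The deposited table gives FPKM values per gene, made by the authors with TopHat 1.3.2, Bowtie 0.12.7 and Cufflinks 1.1.0 on dm3, per the submitters' processing notes. Within an experiment every library has an equal number of genes at or above 1, a property of values scaled by rank. No label states such a step. All 62 labelled samples have a group, and 61 have a column, 18 matched by title and 43 to a group only, where libraries are numbered by column order. Headings of the male columns name r4 where the labels say cg-GAL4, and the labels were followed.

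Values were tested as log2(value + 1) with limma 3.58.1 in R 4.3.3 (moderated test with a mean-variance trend), each experiment fitted alone over all genes with a mean of at least 1, and p-values were adjusted by Benjamini-Hochberg over all genes tested. The code was tested on simulated data. The members and the gene lists were chosen with earlier results of these data known. Per-library values are given for the comparisons in which a member called at least 2 times, or among the 4 highest of an experiment, was called. Called members are named in order of change, and those past 8 a direction follow. Alternatives were a pseudocount of 0.1, no filter, rescaling by the median ratio, leaving out each library, the replicate block and, added after seeing the data, leaving out both FOXO RNAi libraries numbered 2 or the second library of each r4 60100 group of 4. FPKM keep no counts, so no count test was run. Same-numbered libraries did not all deviate together (residual correlations of -0.243 to 0.401 over the 3 experiments whose columns carry numbers), so the main fits did not pair libraries by number. Such a range cannot exclude pairing, and the replicate block was run as an alternative. Of the 79 members, 78 matched RefSeq by gene identifier. Close paralogs, such as the Cyp12d1 copies and Cyp6a23 with Cyp6a17, may share reads. P450 genes under other names (such as CG10246 and CG10245) stayed outside the rule.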

Additional observations from a re-analysis of the deposited data

Results flagged for a closer look

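Among 133 groups of 4 libraries tested over 19 members, 7 held a library whose gap to the others exceeded Dixon's critical value, where chance gives about 1 in 20 groups. Cyp4e2 was 5.97 in Stat92E RNAi library 2 on 0.15 M (others 3.87 to 4.14) and 6.65 in FOXO RNAi library 2 on 0.7 M (others 4.2 to 4.53). Cyp6d5 was 25 in FOXO RNAi library 2 on 0.15 M (others 13.1 to 14.3), and Cyp6g1 was 4.52 in FOXO RNAi library 2 on 0.7 M (others 10.6 to 11.6). Cyp6w1 was 0.923 in p53 RNAi library 2 on 0.7 M (others 1.43 to 1.51), and Cyp9h1 was 0.638 in p53 RNAi library 3 on 0.7 M (others 0.879 to 0.903). Cyp9h1 was 2.01 in FOXO RNAi library 1 on 0.15 M (others 1.91 to 1.93). Of these 7, 5 are libraries in the second column of their group. Over all genes, the second library had the lowest mean correlation with its group in all 7 groups of 4 (0.964 to 0.982) and held the most fragments per unit in 6. Residuals of second libraries had a median correlation of 0.171 with each other (12 of 21 pairs over 0.1), against 0.002 over the other pairs between groups (113 of 399 over 0.1). No label names a batch, and the part of this in the results was not tested beyond leaving these libraries out.

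The effect of Tfb1 RNAi in males differed between 1.0 M and 0.15 M sucrose for Cyp6d5 (1.07 on the log2 scale, adjusted p = 0.0072), Cyp28a5 (0.98, adjusted p = 0.023) and Cyp310a1 (0.88, adjusted p = 0.018), each by limma's interaction term.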

How the results depend on the processing

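No called change of a member reversed its direction in the alternatives run. Of 196 calls of members, 136 held in every alternative run. A pseudocount of 0.1 lost 11 calls, no filter 26 and rescaling 16. Without a filter on low values the number of members called was 5 (main 3) for the difference of the Tfb1 RNAi effect between diets, 8 (main 5), 13 (main 8) and 10 (main 6) for 0.7 M, 1.0 M and the trend in r4 w1118 females, and in FOXO RNAi 12 (main 7) on 0.15 M, 18 (main 10) on 0.7 M, 30 (main 12) for diet and 5 (main 0) for the difference between diets. More genes were tested there. Rescaling left 2 of 4 calls for p53 RNAi on 0.15 M, and leaving out both FOXO RNAi libraries numbered 2 gave 2 (main 0) for the FOXO difference between diets; the cause was not tested.

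Leaving out 1 library at a time gave these lowest and highest numbers of called members, with the libraries behind each change of over 1.5 times. In males they were 15 and 18 for diet in controls (main 19), 13 and 18 for Tfb1 RNAi on 0.15 M (main 22; control libraries 1 and 3), 12 and 14 on 1.0 M (main 14), 13 and 15 for diet within Tfb1 RNAi (main 15) and 2 and 6 for the difference (main 3; Tfb1 RNAi library 3 on 1.0 M). In cg females they were 10 and 14 (main 16; library 3 on 0.7 M), and in r4 w1118 females 1 and 10 on 0.3 M (main 4, every library), 3 and 8 on 0.7 M (main 5, library 2 on 0.15 M and libraries 2 and 3 on 0.7 M), 4 and 9 on 1.0 M (main 8, library 1 on 1.0 M) and 4 and 7 for the trend (main 6). For p53 RNAi they were 0 and 4 on 0.15 M (main 4, libraries 1 and 3 of both groups) and 6 and 9 on 0.7 M (main 10, control libraries 1 and 4 and p53 RNAi library 2). The differences between diets gave 0 and 3 for FOXO (control library 3 and FOXO RNAi library 2 on 0.15 M, library 4 of both groups on 0.7 M) and 0 and 1 for Stat92E (its library 4 on 0.7 M), with main counts of 0. Each other comparison in r4 60100 females stayed within 1.5 times its main count.

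Leaving out the second library of each group of 4 in r4 60100 females, chosen after seeing the data, gave 7 calls for p53 RNAi on 0.15 M (main 4), 2 for Stat92E RNAi on 0.15 M (main 0) and 1 for its difference between diets (main 0). It lost 7 of 84 calls, among them Cyp6d5 in FOXO RNAi on 0.15 M (0.33, adjusted p = 0.1).

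With the replicate block the calls were 17 for diet in control males (main 19), 21 and 15 for Tfb1 RNAi on 0.15 M and 1.0 M (main 22 and 14), 15 for diet within Tfb1 RNAi (main 15) and 4 for the difference (main 3), 15 in cg females (main 16), and 4, 5, 8 and 6 for 0.3 M, 0.7 M, 1.0 M and the trend in r4 w1118 females, the main counts. The block lost 5 of 112 calls. Residual correlations of same-numbered libraries were -0.243 to 0.401 in males (18 pairs), -0.075 to 0.088 in cg females (3 pairs) and -0.202 to 0.373 in r4 w1118 females (18 pairs), beside -0.577 to 0.43, -0.184 to 0.182 and -0.299 to 0.218 for different numbers. No paired analysis was possible because the columns carry no replicate numbers in r4 60100 females, apart from p53 RNAi on 0.15 M. Values near 1 rest on few fragments, which limits the members in the low range.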
